A study of Danio rerio with 15 samples.

Results

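The livers of fish that received 0.1 Gy of γ-rays as embryos were compared with the livers of fish that received 1.0 Gy as embryos. The arrays were chosen by their titles, 3 for embryo 0.1 Gy and 3 for embryo 1.0 Gy, which makes 6 of the 15 arrays of the series, and every zebrafish probe set on them was examined. Both groups were irradiated at 24 hours post fertilization and examined as males at 16 weeks, in the AB genetic background. The 3 control arrays, from males of the same age and background that were not irradiated, are given beside them to show which dose departs from control. The adult 0.1 Gy and adult 1.0 Gy groups, 3 arrays each, were irradiated at 16 weeks and examined 4 hours later. They are part of the fit described below, so every call also depends on them. Their own dose difference is given only where that of the embryo groups is set against it. All embryos came from 3 breeding pairs, and every array was hybridized with a pool made from 2 male livers. Each embryo dose was given to a single group of embryos withdrawn from the same pool, and how the groups were housed afterwards is not given in the sources used here. Dose and group of fish therefore cannot be told apart. The standard errors below rest on the spread between pools within groups, estimated over all 5 groups together and shared across probe sets. They do not measure a spread between groups of fish given the same dose. The 12 males of the adult groups came from the control cohort.

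As background, ionizing radiation damages DNA and raises reactive oxygen, and cells answer through p53, NF-κB and the integrated stress response. Immediate early genes are transcription factors and feedback regulators whose transcripts are made without new protein synthesis and are short-lived. In liver, the hepatocyte folds large amounts of secreted protein in the endoplasmic reticulum with chaperones, stores glycogen, and sends out insulin-like growth factor binding proteins that follow nutrition and stress.

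Values are log2 probe set expression, array medians lay between 5.018 and 5.14, and the 15 arrays limit the precision. Of 15502 zebrafish probe sets, the 8634 whose interquartile range over the arrays was at least 0.2 were tested with limma, and a probe set is called where the F-test over the 5 groups and the comparison both had an adjusted p under 0.05. The title and the source name point to different groups for 4 arrays, which are control replicates 2 and 3 and 2 of the adult 0.1 Gy arrays, and these were kept in the group of their title, dose and timing. The hepatocyte genes fabp10a, tfa and apoa2 lay between 14.27 and 15.07 on all control and embryo arrays. Other hepatocyte genes varied more. The 24 measured members of the hepatocyte list differed between the embryo doses by -1.71 to 0.5, 9 above 0 and 15 below. The hepatocyte factor cebpa ran from 10.73 to 11.56 in controls, 8.92 to 10.7 at 0.1 Gy and 9.67 to 10.23 at 1.0 Gy. The egg-yolk genes vtg2, vtg3 and vtg4, made in female liver, lay between 2.98 and 4.95 on the control and embryo arrays.

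Of the 8634 probe sets tested, 107 (1.24%) differed between the embryo doses, 35 (0.405%) higher and 72 (0.834%) lower at 0.1 Gy than at 1.0 Gy. They read 76 of 5626 tested genes with a symbol (1.35%), 26 higher (0.462%) and 50 lower (0.889%). The differences ran in size between 0.47 and 3.68 on the log2 scale, and 44 of them were at least 1 (20 higher and 24 lower). Over all tested probe sets the median size of the difference was 0.142, and 1194 probe sets had an unadjusted p under 0.05. The arrays of the embryo groups did not overlap for 1694 of the 8634 probe sets (19.6%), 874 (10.1%) with 0.1 Gy above and 820 (9.5%) with 0.1 Gy below, and for all 107 called ones. With 3 arrays against 3, an exact two-sided test of 1 probe set alone cannot go below p = 0.10, so the calls rest on the spread that limma shares across probe sets.

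The largest difference among the genes higher at 0.1 Gy was that of mycb, one of the zebrafish Myc transcription factors that drive growth. It read 9.90, 10.29 and 10.46 on the 0.1 Gy arrays, against 5.95, 6.53 and 7.14 on the 1.0 Gy arrays, a log2 difference of 3.68 ± 0.74 (SE, adjusted p = 0.0264) or 12.8-fold. The controls spread widely, at 5.63, 6.48 and 9.84, so that control replicate 3 lay next to the 0.1 Gy arrays and the remaining controls among or below the 1.0 Gy arrays. The difference of 0.1 Gy from control passed (2.90, adjusted p = 0.0143) and that of 1.0 Gy did not (-0.78, adjusted p = 0.465).

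The stress gene ppp1r15a (also called GADD34) encodes the phosphatase subunit that reverses phosphorylation of translation factor eIF2α. All 4 of its probe sets were called, with log2 differences of at most 2.78. The one with the smallest p read 7.88, 7.13 and 7.83 at 0.1 Gy, against 4.86, 4.77 and 4.88 at 1.0 Gy (2.78 ± 0.40, adjusted p = 0.0045). Those 1.0 Gy values lay below the medians of their arrays, and the other 3 probe sets differed by less, 1.52 to 1.96. The groups lay well apart, and the control arrays at 4.93, 5.26 and 6.72 lay below every 0.1 Gy array. The difference of 0.1 Gy from control was 1.97 (adjusted p = 0.0042) and that of 1.0 Gy -0.80 (adjusted p = 0.173).

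Both genes for IκBα, the inhibitor that holds NF-κB in the cytoplasm and is itself induced by it, were higher at 0.1 Gy. The nfkbiab probe set read 11.57, 10.72 and 11.12 at 0.1 Gy, against 8.75, 8.85 and 9.69 at 1.0 Gy (2.04 ± 0.39, adjusted p = 0.0227), with controls at 8.84, 9.61 and 10.60. The nfkbiaa probe set read 9.27, 8.48 and 8.28 at 0.1 Gy, against 7.79, 7.0 and 7.14 at 1.0 Gy (1.37 ± 0.26, adjusted p = 0.0214). Its controls, at 7.30, 6.46 and 6.68, lay below every 0.1 Gy array. No other member of the NF-κB and acute-phase list was called, of 31 measured and 21 tested, beside 1.35% of all tested genes called. For both genes 0.1 Gy passed against control (1.45 and 1.86 on the log2 scale) and 1.0 Gy did not (-0.59 and 0.49).

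The transcription factor cebpd, which drives acute-phase genes in liver, read 12.08, 12.12 and 12.23 at 0.1 Gy, against 10.89, 11.04 and 11.35 at 1.0 Gy (1.05 ± 0.22, adjusted p = 0.0375). A second, dim cebpd probe set differed by 0.39 and did not pass (adjusted p = 0.083). The kinase gene pim1, a target of cytokine and STAT signaling, was tight at 0.1 Gy, with 7.25, 7.31 and 7.30, against 6.57, 6.19 and 6.0 at 1.0 Gy (1.04 ± 0.17, adjusted p = 0.0080). Both had controls below every 0.1 Gy array, and the 1.0 Gy mean of cebpd lay within 0.02 of the control mean. The suppressor of cytokine signaling socs3a read 7.88, 7.68 and 8.73 at 0.1 Gy and 5.98, 6.15 and 6.12 at 1.0 Gy, and did not pass (2.01 ± 0.50, adjusted p = 0.0688).

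The gene ppp1r3ca encodes the subunit that brings protein phosphatase 1 to glycogen and promotes its storage, and it read 11.44, 10.56 and 10.59 at 0.1 Gy, against 9.0, 8.77 and 7.93 at 1.0 Gy (2.29 ± 0.28, adjusted p = 0.0020). The control arrays lay between the embryo groups at 9.77, 9.48 and 10.19, and both doses passed against control in opposite directions, 1.05 at 0.1 Gy (adjusted p = 0.0175) and -1.25 at 1.0 Gy (adjusted p = 0.0095). A further ppp1r3ca probe set, near 3.5 on every group mean, was too invariant to be tested. Of the 45 measured members of the glycogen and glucose list 36 were tested, and ppp1r3ca was the only one called. Over all tested genes 1.35% were called, so a list of this size can hold 1 call without differing from the rest.

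The secreted binding protein gene igfbp1b, which in liver follows fasting and stress, read 9.94, 8.17 and 8.09 at 0.1 Gy, against 6.71, 6.51 and 6.68 at 1.0 Gy (2.1 ± 0.45, adjusted p = 0.0375). Its control arrays lay at 6.34, 7.09 and 7.98, all below the 0.1 Gy arrays, and replicate 1 of 0.1 Gy stood above the rest of its group. Its paralog igfbp1a, named after its values were seen, differed by 2.12 ± 0.66 and did not pass (adjusted p = 0.149). The glucocorticoid-induced leucine zipper gene tsc22d3 read 10.34, 9.51 and 9.51 at 0.1 Gy, against 8.05, 8.01 and 8.03 at 1.0 Gy (1.76 ± 0.34, adjusted p = 0.0238). For tsc22d3 it was 1.0 Gy that differed from control (-1.14, adjusted p = 0.0355), while 0.1 Gy did not pass (0.62, adjusted p = 0.247) beside controls of 8.29, 9.30 and 9.90. The mitochondrial folate carrier gene slc25a32a differed by 1.69 ± 0.38 (adjusted p = 0.046), with neither dose past the threshold against control.

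The gene diabloa, whose product leaves mitochondria to block inhibitors of apoptosis, read 12.88, 12.76 and 12.63 at 0.1 Gy, against 11.88, 11.07 and 10.35 at 1.0 Gy (1.66 ± 0.31, adjusted p = 0.0202). The survival gene mcl1a of the Bcl-2 family was also higher at 0.1 Gy, with 10.03, 10.30 and 10.18 against 9.64, 9.58 and 9.49 at 1.0 Gy (0.60 ± 0.13, adjusted p = 0.0451). Both doses of mcl1a lay above every control array (9.17, 8.73 and 8.88) and both passed. The cyclin G2 gene ccng2, linked to growth arrest, was called with both of its probe sets (0.87 and 1.1), and on each of them only 0.1 Gy differed from control. The cell death genes bik, of the BH3-only kind, and bnip4, a BNIP3 relative, which were named after their values were seen, differed by 0.81 each (adjusted p = 0.0309 and 0.0451). The remaining named genes of this direction were gbp, a binding protein of glycogen synthase kinase 3 (2.48 ± 0.47), zgc:162730 (1.82 ± 0.31) and ankrd9 (0.88 ± 0.18).

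**Figure D1:**
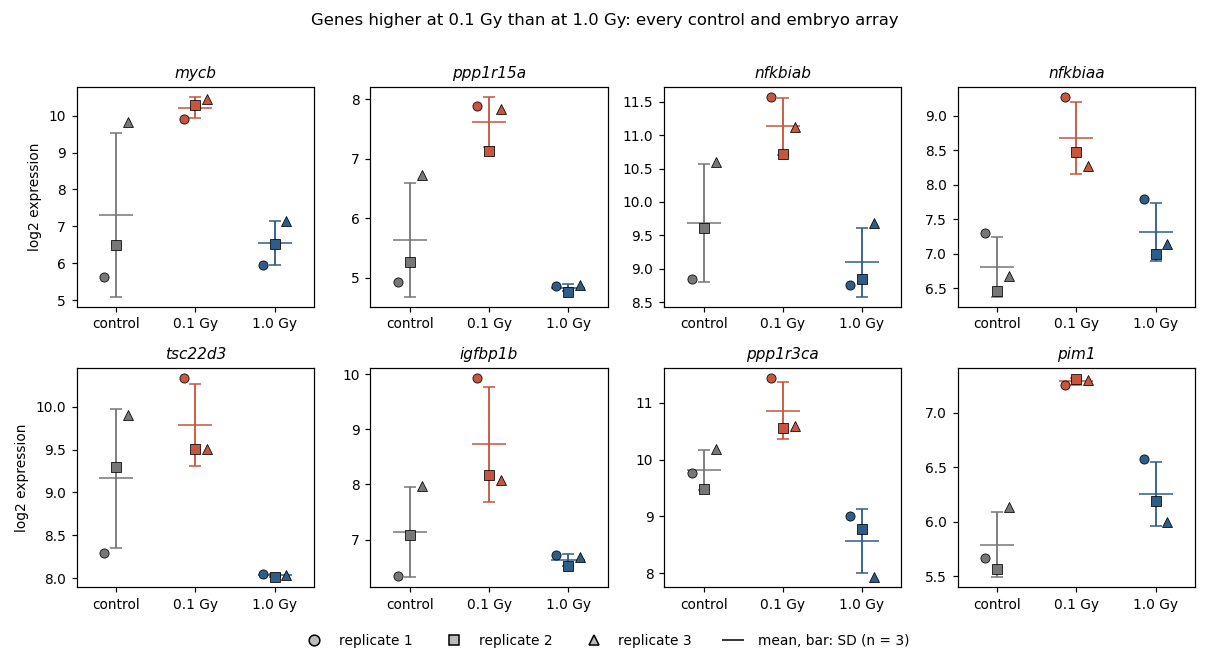
Log2 expression of 8 genes higher at 0.1 Gy on every control and embryo array (symbols by replicate, lines for the mean, bars for the SD, n = 3). All 0.1 Gy arrays lie above all 1.0 Gy arrays in each panel, and control replicate 3 lies at 9.84 for mycb, beside the 0.1 Gy arrays.

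The list of heterogeneous nuclear ribonucleoproteins and splicing regulators had 87 measured and 72 tested members. It was written with earlier results of these data known, those of hnrnpa0b and khdrbs1a among them. Of its tested members, 4 were lower at 0.1 Gy and none higher, beside 0.889% of all tested genes lower. The largest of these differences was that of hnrnpa0b, a heterogeneous nuclear ribonucleoprotein that in mammals binds AU-rich transcripts. A single one of its probe sets carried the call and read 5.13, 4.75 and 5.23 at 0.1 Gy, against 7.70, 7.51 and 7.11 at 1.0 Gy (-2.40 ± 0.28, adjusted p = 0.0020), with controls of 6.07, 5.21 and 4.74. Here 1.0 Gy was above control (2.1, adjusted p = 0.00088) and 0.1 Gy did not pass (-0.30, adjusted p = 0.515). The other probe sets of hnrnpa0b went a different way. The 2 brighter ones differed between the doses by -0.18 each and had group means of 8.35 and 9.12 at 0.1 Gy and 8.53 and 9.30 at 1.0 Gy, both below their control means of 9.59 and 10.30, and a dim one was not tested.

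The splicing regulator gene khdrbs1a (Sam68 in mammals) was lower at 0.1 Gy on 4 of its 6 probe sets, by 0.58 to 1.87 on the log2 scale. The probe set with the smallest p read 6.50, 6.13 and 6.32 at 0.1 Gy, against 7.58, 7.92 and 8.23 at 1.0 Gy (-1.59 ± 0.20, adjusted p = 0.0023), and its controls lay between, at 7.24, 7.04 and 6.73. Both doses passed against control in opposite directions, -0.68 at 0.1 Gy (adjusted p = 0.0309) and 0.91 at 1.0 Gy (adjusted p = 0.0093). This probe set may read more than 1 transcript, as its identifier ends in x_at. The brightest khdrbs1a probe set differed less (-0.58, adjusted p = 0.0397), with 0.1 Gy below control (-0.86) and 1.0 Gy not past the threshold (-0.28).

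The gene rsrp1, for an arginine- and serine-rich protein, had the smallest adjusted p of the comparison. It read 7.82, 7.63 and 7.88 at 0.1 Gy, against 9.37, 9.17 and 9.65 at 1.0 Gy (-1.62 ± 0.16, adjusted p = 0.00100). The controls, at 8.96, 8.87 and 8.48, lay between the groups and overlapped neither, and both doses passed against control, -0.99 at 0.1 Gy and 0.62 at 1.0 Gy. The RNA-binding gene rbmx read 4.62, 4.70 and 4.74 at 0.1 Gy and 5.58, 5.44 and 5.64 at 1.0 Gy (-0.87 ± 0.17, adjusted p = 0.0214). On this probe set 1.0 Gy was above control (0.86, adjusted p = 0.0053). Its other, brighter probe set showed no difference in means between the doses (0.00 ± 0.25). There the means of 7.2 at 0.1 Gy and 7.21 at 1.0 Gy both lay below the control mean of 8.29. The stress granule gene g3bp1 read 7.21, 7.14 and 6.70 at 0.1 Gy, against 8.72, 8.87 and 8.86 at 1.0 Gy (-1.80 ± 0.27, adjusted p = 0.0055), and all 6 arrays were below the controls of 9.36, 10.47 and 10.42. The fourth called member of the splicing list, beside hnrnpa0b, khdrbs1a and rbmx, was hnrnpa0a (-0.72 ± 0.15, adjusted p = 0.0309). The other hnrnpa0a probe sets differed by -0.85 and -0.34 and did not pass (adjusted p = 0.0531 and 0.492).

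The chaperone gene hspa5 (BiP), the main Hsp70 of the endoplasmic reticulum, lay far below control at both doses. It read 6.95, 7.71 and 7.20 at 0.1 Gy, against 8.84, 8.93 and 9.73 at 1.0 Gy (-1.88 ± 0.35, adjusted p = 0.0203), with controls of 11.20, 11.41 and 11.10. The embryo groups did not overlap each other or the controls, and relative to control hspa5 fell 15.5-fold at 0.1 Gy and 4.2-fold at 1.0 Gy. It was the only member called in the endoplasmic reticulum list (38 measured, 35 tested), beside 1.35% of all tested genes called. Of the 38, 31 had a lower mean at 0.1 Gy, beside 4545 of all 8793 measured genes. The β-actin gene actb1, of the cytoskeleton, followed the same order, with 10.07, 9.91 and 10.26 at 0.1 Gy, against 11.22, 11.28 and 11.68 at 1.0 Gy (-1.32 ± 0.18, adjusted p = 0.0039) and controls of 11.95, 12.13 and 11.92. The translation initiation factor gene eif4g2a (-0.77 ± 0.17) and the pyrimidine salvage kinase gene uck2b (-1.07 ± 0.22) were likewise below control at both doses and lower at 0.1 Gy. A second eif4g2a probe set differed by -0.7 and did not pass (adjusted p = 0.26).

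Among regulators of transcription, atf3, a stress-induced factor of the ATF/CREB family, went the opposite way to the other called immediate early genes. It read 6.60, 6.90 and 6.56 at 0.1 Gy, against 7.24, 7.57 and 7.82 at 1.0 Gy (-0.86 ± 0.19, adjusted p = 0.0401), and the controls at 6.76, 6.71 and 6.69 lay among the 0.1 Gy arrays. The coactivator gene pprc1, related to PGC-1 and mitochondrial biogenesis, read 3.91, 3.95 and 3.69 at 0.1 Gy, against 5.34, 5.71 and 5.21 at 1.0 Gy (-1.57 ± 0.20, adjusted p = 0.0023). The controls of pprc1, at 4.67, 4.58 and 4.26, lay between the doses without overlap. The arginine methyltransferase gene prmt6 (-1.08 ± 0.17, adjusted p = 0.0066) was below control only at 0.1 Gy, and the bromodomain gene brd2a (-1.26 ± 0.27, adjusted p = 0.0379) passed against control at neither dose. The other 3 brd2a probe sets differed by -0.87, -0.51 and -0.40 and did not pass.

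The gene nabp1a encodes a protein that binds single-stranded DNA, and it read 5.77, 5.61 and 6.04 at 0.1 Gy, against 6.92, 7.61 and 7.78 at 1.0 Gy (-1.63 ± 0.23, adjusted p = 0.0039), with tight controls of 7.38, 7.36 and 7.27. A second nabp1a probe set differed by -0.35 and did not pass (adjusted p = 0.447). Its means at both doses, 5.55 at 0.1 Gy and 5.9 at 1.0 Gy, lay below its control mean of 6.92. The cAMP phosphodiesterase gene pde4ba was called with both of its probe sets (-1.24 and -1.1), and the clearer one read 7.72, 7.27 and 7.76 at 0.1 Gy, against 8.96, 8.66 and 8.84 at 1.0 Gy and 8.73, 9.06 and 9.16 in controls. On the called probe sets of nabp1a and pde4ba the 0.1 Gy arrays alone stood apart. The cyclin D1 gene ccnd1 (-0.90 ± 0.18, adjusted p = 0.0238) had the same pattern, and its other probe set differed by -0.81 without passing (adjusted p = 0.0564). The Fanconi anemia gene fanci differed least of the 37 named genes that were called (-0.58 ± 0.13, adjusted p = 0.0495), the exonuclease gene isg20 by -1.06 ± 0.13, the finTRIM gene ftr82 by -1.05 ± 0.22 and the unnamed transcript wu:fb51h06 by -1.73 ± 0.34.

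**Figure D2:**
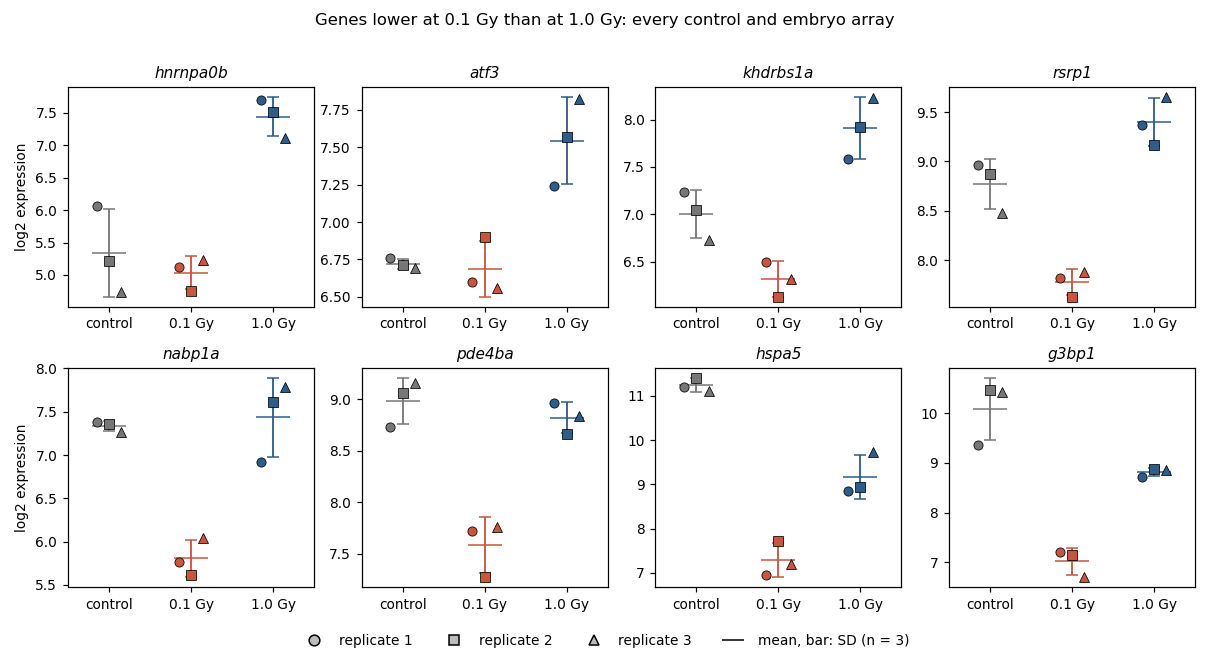
Log2 expression of 8 genes lower at 0.1 Gy on every control and embryo array (symbols by replicate, lines for the mean, bars for the SD, n = 3). In the hnrnpa0b and atf3 panels the controls lie with 0.1 Gy, in khdrbs1a and rsrp1 between the doses, in nabp1a and pde4ba with 1.0 Gy, and in hspa5 and g3bp1 above both.

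Set against control, the called probe sets fell into distinct patterns. Of the 35 higher at 0.1 Gy, 24 differed from control only at 0.1 Gy, 3 only at 1.0 Gy, 4 at both doses in the same direction, 2 at both in opposite directions and 2 at neither. The control mean lay nearer to 1.0 Gy for 31 of the 35. The 3 arrays of 0.1 Gy lay apart from all other embryo and control arrays for 31, and those of 1.0 Gy for 7. Of the 72 lower at 0.1 Gy, 23 differed from control only at 0.1 Gy, 15 only at 1.0 Gy, 23 at both in the same direction, 5 at both in opposite directions and 6 at neither. The control mean lay nearer to 1.0 Gy for 51 of the 72. The 0.1 Gy arrays lay apart from all other embryo and control arrays for 54, and the 1.0 Gy arrays for 23. All these probe sets were chosen for a difference between the embryo doses. The counts of the nearer control mean and of arrays lying apart from both other groups were not made over all tested probe sets. They describe the called probe sets only.

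The median difference from control of the 35 was 1.24 at 0.1 Gy and -0.18 at 1.0 Gy, and that of the 72 was -0.85 at 0.1 Gy and 0.01 at 1.0 Gy. Over all tested probe sets 17.1% passed at 0.1 Gy against control (6.65% higher and 10.4% lower) and 17.2% at 1.0 Gy (5.61% higher and 11.6% lower). Both comparisons use the same 3 control arrays and the embryo arrays by which the 107 were chosen, so these counts describe the patterns and test nothing further. Without the 4 arrays whose source name differs, which leaves control replicate 1 as the only control, the calls against control over all probe sets were 269 at 0.1 Gy and 59 at 1.0 Gy, in place of 1474 and 1483. Control replicate 3 was the control nearest to the 0.1 Gy mean for 17 of the 35, replicate 1 for 13 and replicate 2 for 5.

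**Figure D3:**
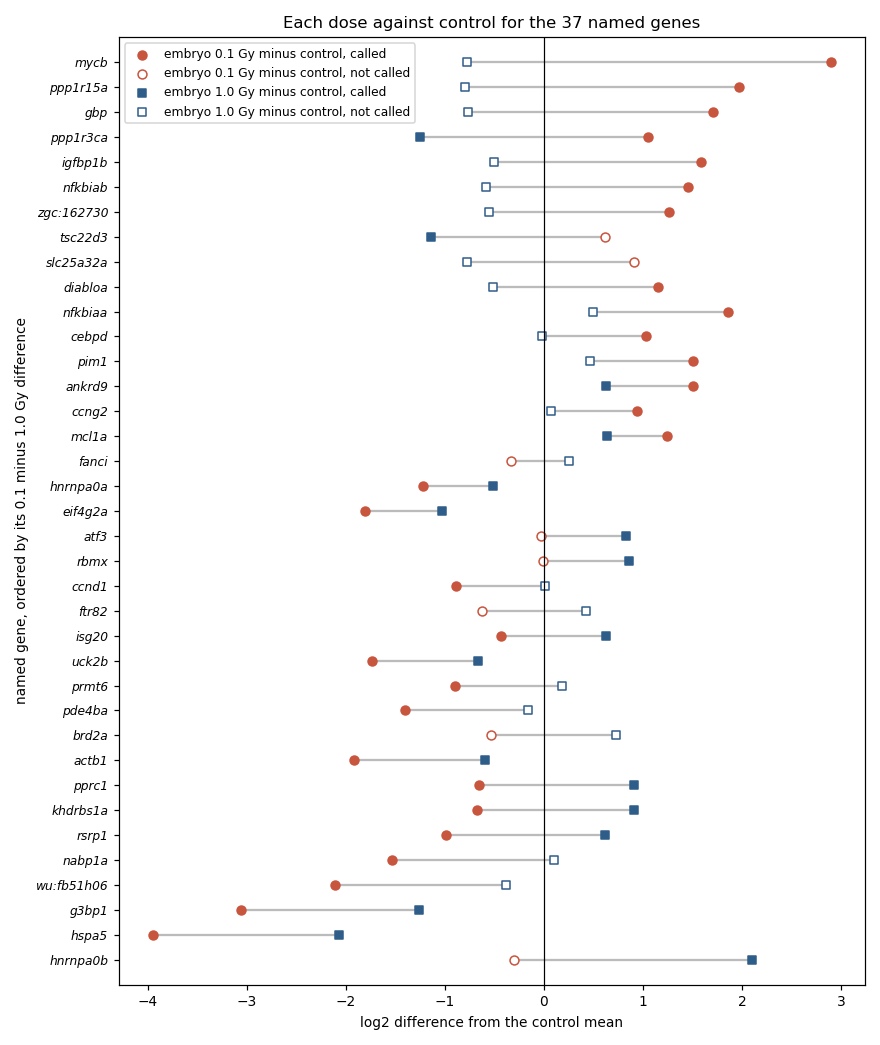
Log2 difference from the control mean of the 37 named genes, circles for embryo 0.1 Gy and squares for embryo 1.0 Gy, filled where called against control. The gray line is the dose difference, and it crosses 0 with both ends called for ppp1r3ca, khdrbs1a, rsrp1, pprc1 and isg20.

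The gene lists were written with earlier results of these data known (that of ppp1r15a among them), so counts by list describe the lists and test nothing. Counted by gene list, the immediate early and stress-induced genes held the most calls among the genes higher at 0.1 Gy. Of 53 measured members (45 tested), mycb, ppp1r15a, cebpd and mcl1a were higher and atf3 was lower, beside 0.462% and 0.889% of all tested genes, and the median difference was 0.11, against -0.01 over all 8793 measured genes. Of the 53 means, 33 were higher at 0.1 Gy and 20 lower. The next members were not called and are named after their values were seen. The growth arrest gene gadd45ga read 10.65, 10.19 and 9.03 at 0.1 Gy, against 5.72, 6.96 and 8.30 at 1.0 Gy (2.96 ± 0.69, adjusted p = 0.0535). Its controls lay at 7.88, 10.34 and 10.72. For gadd45ga it was 1.0 Gy that differed from control (-2.65, adjusted p = 0.0189), and 0.1 Gy did not pass (0.31, adjusted p = 0.805). The AP-1 subunit junbb differed by 2.17 ± 0.56 (adjusted p = 0.0803). The AP-1 subunit fosab spanned 8.37 to 11.11 at 0.1 Gy and 5.57 to 9.56 at 1.0 Gy, so its groups overlapped. In the other direction, the AP-1 subunit jun differed by -0.79, the immediate early gene ier5 by -0.71 and the zinc finger factor klf2a by -0.68, with adjusted p of 0.333, 0.21 and 0.353.

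The list of p53 targets and apoptosis regulators had 3 of 30 tested members higher (ccng2, diabloa and mcl1a) and none lower. Over all tested genes 0.462% were higher and 0.889% lower, and mcl1a is also counted in the immediate early list. The median over its 38 measured members was 0.13, with 21 means higher at 0.1 Gy and 17 lower, and differences from -0.84 to 2.1. The median of the proteasome list was the highest of the 29 lists at 0.20, with 44 of 48 means higher at 0.1 Gy, beside 4248 of all 8793 measured genes. None of its 37 tested members was called, and the others varied too little to be tested. The median of the endoplasmic reticulum list was -0.14. For the p53, endoplasmic reticulum and proteasome lists the order of the medians was kept after subtracting array medians (0.16, -0.10 and 0.23) and after a second quantile normalization (0.09, -0.18 and 0.17). No member was called among the tested ones of the lists for cytosolic heat shock proteins (26 of 37 tested), lipid and cholesterol synthesis (19 of 24), the circadian clock (23 of 30), the respiratory chain (26 of 66), hypoxia (24 of 29), egg-yolk and oestrogen response (6 of 9) and extracellular matrix (24 of 33). With 1.35% of all tested genes called, lists of this size can hold no call without differing from the rest. The remaining lists each had 1 call. They were pim1 for cytokine feedback (16 tested), igfbp1b for fasting (25) and tsc22d3 for nuclear receptors (32). The call in the ribosome biogenesis list (60) was pprc1, which is described above as related to PGC-1 and mitochondrial biogenesis. The other calls were eif4g2a for translation (52), ccnd1 for the cell cycle (36) and fanci for DNA repair (27). Lists of this size can also hold 1 call without differing from the rest.

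**Figure D4:**
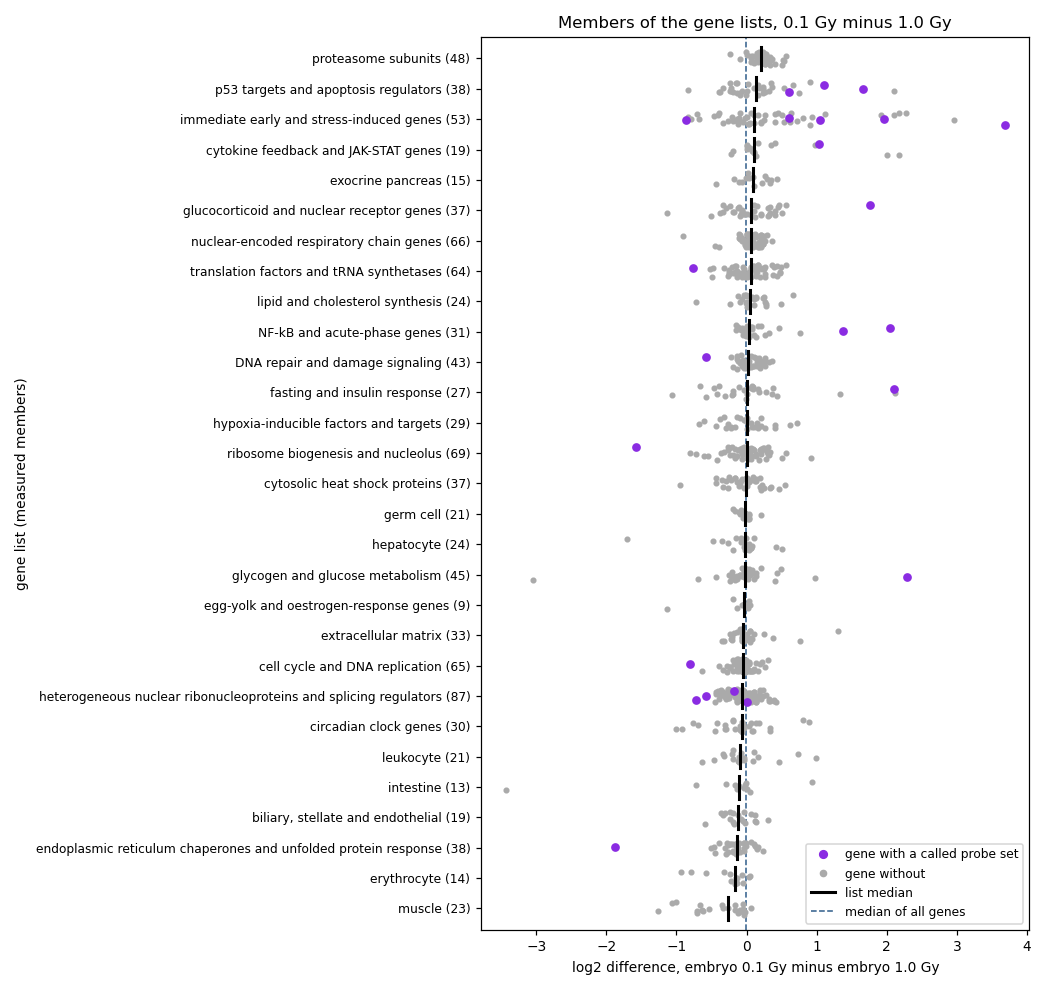
Log2 difference, embryo 0.1 Gy minus embryo 1.0 Gy, of every measured member of the 29 gene lists (1 probe set a gene, that of the highest mean), with list medians as black bars and the median of all genes (-0.01) as a dashed line. Genes with any called probe set are purple, and hnrnpa0b and rbmx lie near 0 because their called probe set is not the brightest.

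The dose difference of the fish irradiated as adults was measured in the same way. Between adult 0.1 Gy and adult 1.0 Gy, 7 probe sets (0.0811%) were called, all higher at 0.1 Gy, among them pim1, which was higher at 0.1 Gy in adults (1.13, adjusted p = 0.0267) as in embryos. The adult difference had the sign of the embryo difference for 18 of the 35 higher and 34 of the 72 lower probe sets, where over all tested probe sets 45.4% of adult differences were above 0 and 54.6% below. The difference between the embryo and adult dose differences was itself called for 61 probe sets (0.707%), 18 (0.208%) positive and 43 (0.498%) negative. Of the 107, 36 were among them, 10 of the higher and 26 of the lower, and these share the embryo arrays by which the 107 were chosen.

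Markers of other cell types were summed on each array, and in bulk liver RNA fewer cells of a type cannot be told apart from less RNA per cell. The summed level of 15 exocrine pancreas markers lay at 16.38, 14.62 and 16.72 (log2) on the 0.1 Gy arrays, against 16.30, 15.95 and 15.40 on the 1.0 Gy arrays and 16.29, 15.76 and 14.90 in controls. The groups overlapped, and the lowest embryo arrays were 0.1 Gy replicate 2 and 1.0 Gy replicate 3. The summed level of 23 muscle markers ran from 9.43 to 10.34 at 0.1 Gy, against 9.96 to 11.34 at 1.0 Gy and 9.19 to 9.57 in controls, and 22 of the 23 had a lower mean at 0.1 Gy (median -0.26), beside 4545 of all 8793 genes. Of 14 erythrocyte markers, 12 had a lower mean at 0.1 Gy (median -0.16), and their summed level ran from 12.27 to 13.11 at 0.1 Gy, against 12.65 to 13.34 at 1.0 Gy and 12.04 to 12.84 in controls. The muscle genes pvalb3 (-1.26 ± 0.99) and ckma (-1.01 ± 0.81), named after their values were seen, overlapped between the doses.

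None of the tested markers of other cell types was called. The intestinal fatty acid binding gene fabp2 read 4.76, 8.12 and 9.59 at 0.1 Gy, against 10.77, 11.29 and 10.72 at 1.0 Gy, without overlap but with a spread too wide to pass (-3.43 ± 1.08, adjusted p = 0.156). Its controls, at 11.18, 8.98 and 6.80, overlapped both groups. Another intestine marker, fabp6, went the other way (0.93 ± 0.32, adjusted p = 0.206), with 5.26, 7.03 and 5.79 at 0.1 Gy against 4.86, 5.16 and 5.29 at 1.0 Gy. Of 13 measured intestine markers, 10 had a lower mean at 0.1 Gy and 3 a higher one. Their summed level ran from 14.93 to 15.02 at 0.1 Gy, against 15.05 to 15.25 at 1.0 Gy and 14.99 to 15.26 in controls. The leukocyte list summed to between 11.61 and 11.89 at 0.1 Gy, against 11.47 to 12.11 at 1.0 Gy and 10.92 to 11.57 in controls. Of its 21 measured members, 15 had a lower mean at 0.1 Gy than at 1.0 Gy and 6 a higher one. The hepatocyte list, carried mostly by its brightest members, summed to between 18.21 and 18.28 on all 6 embryo arrays. Without the 2 embryo arrays lowest in pancreas markers 7 probe sets were called, and without the 2 highest in muscle markers 13. Each of these fits had 2 arrays against 2, and leaving out any single embryo array already gave 37 to 70 calls. The part of these tissues in the dose difference was not tested.

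**Figure D5:**
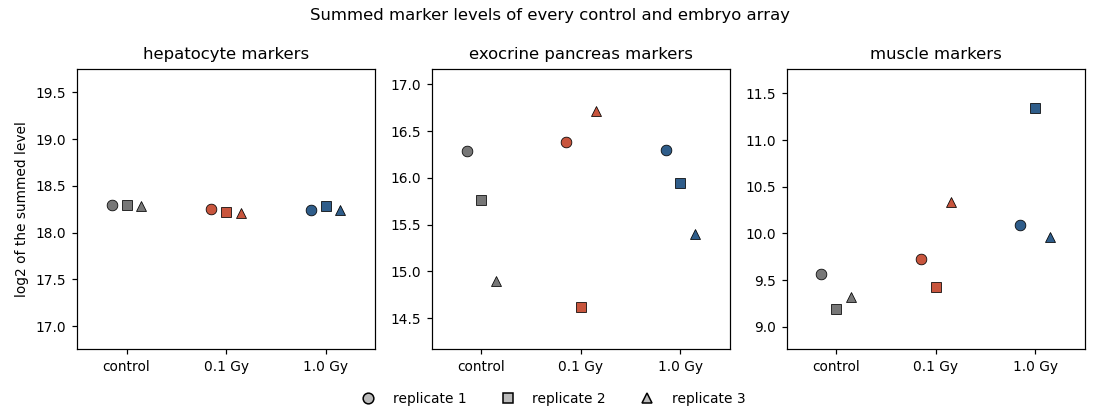
Log2 of the summed level of hepatocyte, exocrine pancreas and muscle markers on every control and embryo array, 3 symbols for the replicates, with axes of equal span. Hepatocyte markers stay within 18.21 to 18.30, and muscle markers reach 11.34 on 1.0 Gy replicate 2. The hepatocyte sum is carried mostly by its brightest members, and dimmer ones such as cebpa varied more.

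The count of calls depended on single arrays. With each of the 15 arrays left out in turn, 37 to 70 probe sets were called without an embryo array (fewest without 0.1 Gy replicate 2), 177 without control replicate 1 and 82 to 110 without any other control or adult array, and 27 of the 107 were called every time, 4 higher and 23 lower at 0.1 Gy. The named genes among those 27 were ppp1r15a, ppp1r3ca and pim1 on the higher side and hnrnpa0b, g3bp1, nabp1a, rsrp1, khdrbs1a, pprc1, actb1, pde4ba, prmt6 and isg20 on the lower side. The other 24 named genes lost their call in at least 1 of these fits, 15 to 22 of the 37 when an embryo array was left out and at most 7 when a control or adult array was. Calls were lost most often for fanci (13 of the 15 fits), mcl1a (12) and eif4g2a (11). The difference of mycb stayed between 3.38 and 3.98 and its adjusted p reached 0.107 without 1.0 Gy replicate 1, and that of igfbp1b went down to 1.49 without 0.1 Gy replicate 1 (adjusted p = 0.104). The hspa5 difference stayed between -2.09 and -1.60, with adjusted p up to 0.0863 without 0.1 Gy replicate 1.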

How the data were processed

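Liver RNA of male zebrafish of 5 groups was hybridized to the GeneChip Zebrafish Genome Array, on 15 arrays, 3 a group. Expression was deposited on the log2 scale, 1 value a probe set, for which the authors checked array quality with affyPLM, applied quantile normalization and summarized probes with the Robust Multiarray Average (RMA), in versions not given in the sources used here. Of 15617 probe sets, 115 manufacturer controls were left out. Through the platform annotation, with symbols updated by Entrez ID from a gene table, 10795 of the remaining 15502 had 1 symbol, 135 several and 4572 none.

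The filter (interquartile range of at least 0.2), the F-test over the 5 groups and the 5% false discovery rate were taken from the methods of the study and applied to the deposited values, so the set tested here need not be the one the study tested. Group means were fitted in limma 3.58.1 (R 4.3.3) over all 15 arrays, and p-values were adjusted by Benjamini-Hochberg over the 8634 probe sets tested. Differences are 0.1 minus 1.0 Gy unless stated, ± SE from limma. The script was checked on simulated data. The arrays carry no counts, and their number limits the precision. A list is described by its called members and by its median difference over the brightest probe set of each gene.

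Named genes are, with the probe set of smallest p for each, the 15 largest differences in each direction, up to 4 called members of each of the 29 lists, and 4 genes of earlier interest. Lists with fewer than 2 called members also gave 2 members as values only. The genes, lists and tests were chosen with earlier results of these data known. Altogether 30 settings were tried. After the data were seen, 2 of them were added (without the arrays lowest in pancreas or highest in muscle markers), and array weights and the fit of embryo and control arrays alone were carried to further comparisons.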

Additional observations from a re-analysis of the deposited data

Results flagged for a closer look

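Each result here is a dose difference (0.1 minus 1.0 Gy, log2) that differed between the fish irradiated as embryos and those irradiated as adults by a test of that difference in limma. Over all probe sets 61 were called in this way (0.707% of those tested), and the genes below are the named ones among them, chosen for their embryo difference.

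Among genes higher at 0.1 Gy after embryo irradiation, ppp1r3ca had a difference of the 2 dose differences of 2.60 ± 0.39 (embryo 2.29, adult -0.31, adjusted p = 0.019) and ccng2 one of 1.35 ± 0.24 (embryo 0.87, adult -0.48, adjusted p = 0.0224). Among the lower ones the values were -2.84 for wu:fb51h06, -2.21 for g3bp1, -2.19 for uck2b, -2.03 for hnrnpa0b, -1.95 for pprc1, -1.89 for nabp1a, -1.46 for pde4ba, -1.35 for rsrp1, -1.33 for isg20, -1.29 for atf3, -1.28 for prmt6 and -1.14 for eif4g2a, with adjusted p between 0.0137 and 0.0463. The pyrimidine salvage gene uck2b was lower at 0.1 Gy in embryos (-1.07), and its adult difference of 1.12 did not pass (adjusted p = 0.0815). For wu:fb51h06 the embryo difference was -1.73, and the adult difference of 1.11 did not pass either (adjusted p = 0.217). The adult difference of hnrnpa0b was -0.37 and that of rsrp1 -0.27. Groups of 3 arrays were too small to look for single outlying samples.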

How the results depend on the processing

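The 107 calls between the embryo doses were 98 to 141 under other scalings, filters on variation (none or 0.5) or signal, no F-test, an intensity trend, the embryo arrays alone, manufacturer controls kept, or without the 4 arrays with another source name. They were 56 with only embryo and control arrays, 355 with array weights, and 7 and 13 without the 2 arrays lowest in pancreas and highest in muscle markers, and with 1 array left out 37 to 177. Same-numbered arrays did not deviate together (r between -0.291 and 0.179, 4 of 15 arrays correlating best with their own number), and a replicate block gave 66 calls, 1271 and 1189 for 0.1 and 1.0 Gy against control and 13 for the embryo minus adult difference. Against control, 0.1 Gy had 1474 calls and 1.0 Gy 1483. These were 596 and 498 with a filter of 0.5, 3008 and 3552 with array weights, 269 and 59 without the 4 arrays with another source name (which leaves 1 control array, assumed to vary like the others), 942 and 903 without the 2 pancreas-low arrays, 845 and 505 without the 2 muscle-high arrays, and 938 at 1.0 Gy with embryo and control arrays alone. With 1 array left out they ran from 835 to 1803 at 0.1 Gy (835, 916 and 953 without control replicates 2 and 3 and 0.1 Gy replicate 3) and from 503 to 1961 at 1.0 Gy (626, 503 and 613 without control replicates 2 and 3 and 1.0 Gy replicate 2). At 1.0 Gy the calls were 484 higher and 999 lower, and 311 and 1196 after subtracting array medians. The 61 calls of the embryo minus adult difference were 34 without a filter, 174 with array weights, 7 and 1 without the pancreas-low and muscle-high arrays, and with 1 array left out 3 to 126, the fewest when adult 0.1 Gy replicate 3 and the most when control replicate 1 was dropped. The 1694 probe sets without overlap were 589 with a filter of 0.5 and 2209 to 3226 with an embryo array left out, where fewer arrays overlap less. Of the named genes, khdrbs1a turned to 0.01 on 1 of its 6 probe sets and fn1a (-0.35, not called) to 0.09 on another, and amy2a (-0.43, not called) lay between -0.75 and 0.03 with 1 array left out, above 0 only without embryo 0.1 Gy replicate 2. The causes were not tested. The depth of an array is its signal, and pprc1 (means of 3.85 and 5.42) lies near the dim end of the scale. The embryo 0.1 Gy means of wu:fb51h06 (4.38), rbmx (4.68), fanci (4.88) and hnrnpa0b (5.04) also lay below the medians of those arrays (5.077 to 5.097).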
